A study of Mus musculus with 6 samples.

Results

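The type I interferon response was examined in LSK cells of mouse bone marrow through 36 of its genes, which were taken by symbol from a fixed list and described as 7 sensors of nucleic acid, 8 regulators and 21 effectors. All 36 symbols were among the 48395 in the files, and all 36 were among the 16739 genes that passed the filter on low counts. LSK stands for lineage-negative cells with Sca-1 and c-Kit at the surface, among which are the stem cells and the first progenitors of blood. The donor marrow of both groups was Mx1Cre; Jak2V617F/+ (Jak2VF/+), from mice primed with 5-fluorouracil, and the labels give the strain as C57BL/6. It was transduced with lentivirus, either vector alone (3 libraries) or Hmga2 (3 libraries), and transplanted into C57BL/6 recipients that had received 2 doses of 550 cGy, and marrow was collected 32 weeks later. Mx1Cre places the recombinase under the promoter of Mx1, itself an interferon-inducible gene and a member of the list. The labels used here do not say how the recombinase was induced, and nothing but the lentivirus separates the groups by their labels.

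Type I interferons bind a receptor made of Ifnar1 and Ifnar2, whose kinases Jak1 and Tyk2 activate a transcription factor complex that holds Stat2 and Irf9. This complex binds interferon-stimulated response elements and turns on a shared set of genes. Sensors such as the helicases encoded by Ddx58 and Ifih1 detect foreign or misplaced RNA, regulators amplify or restrain the signal, and effectors act on viral RNA, proteins or membranes. Stem cells are known to keep part of this set active without infection, and interferon is known to drive quiescent stem cells into cycle.

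Interferon-stimulated response elements were looked for in the members' promoters, and some of those with a match are shown to make the shared sequence visible. RefSeq promoters (GRCm38.p6, the same assembly as the mm10 build named for the files, 250 bases before to 50 after each annotated start) were found for 26 of the 36 members and not for Ifi27, Mx1, Mx2, Oas2, Usp18, Rtp4, Zbp1, Dhx58, Parp9 and Parp14. The core of the element was searched as GAAANNGAAA on both strands (TTTCNNTTTC when read on the opposite strand), with overlapping matches allowed. It occurred in 12 of the 26 members (46.2%), against 3.99% of all 27025 symbols with a promoter. All 4 sensors with a promoter held it (Ifih1, Ddx58, Oas1a and Oas3), as did 1 of 5 regulators (Trim30a) and 7 of 17 effectors (Isg15, Ifit1, Ifit3, Ifit3b, Ifitm3, Rsad2 and Bst2). A match is a description of these letters and not a bound site. For 8 members with a match before the start, the matches are printed in capitals with flanking bases, 5′ to 3′ along the gene.
Oas3, chr5:120777710-120777749, minus strand: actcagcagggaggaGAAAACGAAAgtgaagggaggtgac
Trim30a, chr7:104465205-104465244, minus strand: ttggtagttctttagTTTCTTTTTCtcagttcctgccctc
Isg15, chr4:156200860-156200911, minus strand: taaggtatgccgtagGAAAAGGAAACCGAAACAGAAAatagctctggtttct
Ifit1, chr19:34640770-34640828, plus strand: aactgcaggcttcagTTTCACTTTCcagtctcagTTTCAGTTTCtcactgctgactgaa
Ifit3, chr19:34583358-34583431, plus strand: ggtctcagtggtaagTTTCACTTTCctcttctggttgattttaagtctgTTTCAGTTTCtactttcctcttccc
Ifit3b, chr19:34607754-34607827, plus strand: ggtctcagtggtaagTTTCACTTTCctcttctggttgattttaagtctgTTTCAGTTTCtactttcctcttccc
Rsad2, chr12:26456548-26456587, minus strand: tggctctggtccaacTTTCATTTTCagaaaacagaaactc
Bst2, chr8:71537572-71537617, minus strand: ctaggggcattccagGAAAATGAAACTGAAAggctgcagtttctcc
Isg15 held 3 overlapping matches in a row and Bst2 held 2, while Ifit1, Ifit3 and Ifit3b each held 2 that did not overlap. The 74 bases shown for Ifit3 and Ifit3b differed at 0 positions.

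Total counts per library were 24818011 to 35471806, so that the floor of 3 counts lay at 0.0847 to 0.126 CPM (the usual depth-scaled count, with each library total adjusted by its TMM factor), for counting error only. Hmga2 itself was at 5.95, 5.03 and 7.03 CPM in vector replicates 1, 2 and 3 and at 2.63, 6.63 and 5.91 CPM in Hmga2 replicates 1, 2 and 3, and the 3 labelled libraries were not higher. The log2 fold change was -0.25 (SE 0.35, 95% interval -1.08 to 0.58, adjusted p = 0.934), and directions below refer to the labels only. The sources used here do not say whether this symbol includes reads of the lentiviral copy. All 10 LSK and early progenitor markers were detected, with sums of 1267 to 1471 CPM in the vector libraries and 1561 to 1636 CPM in the others. Ly6a, which encodes Sca-1 and is known to be interferon-inducible, was at 51.4, 19.3 and 59.1 CPM in vector replicates 1, 2 and 3 and at 32.2, 45.5 and 33.2 CPM in Hmga2 replicates 1, 2 and 3. Libraries also differed within the groups. Immunoglobulin genes took 0.676% to 1.94% of counts in vector replicates 1 and 3 and Hmga2 replicate 2, against 0.0681% to 0.0951% in the others. Y-linked genes summed to 129 and 191 CPM in Hmga2 replicates 3 and 1 and to 5.24 to 21.4 CPM in the other 4. Vector replicate 2 had the highest sums of the neutrophil list (8280 CPM against 2613 to 4244 CPM) and of the monocyte and macrophage list (332 CPM against 131 to 235 CPM). In bulk RNA, fewer cells of a type and less RNA per cell cannot be told apart. The labels call the libraries of a group biological replicates.

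Basal levels of the list, over both groups, spanned the 9th to the 98.7th percentile of all genes tested. Per kb of annotated exons (GENCODE M21), which allows levels of different genes to be compared, the members ran from 0.279 to 279.9 CPM per kb, averaged over the 6 libraries, with a median of 5.19 against 5.45 for all genes tested. Of the 36, 7 lay above the 75th percentile of all genes tested and 6 lay below the 25th. The top 5 were effectors. Ifitm3, a membrane protein that blocks virus entry, stood at 279.9 CPM per kb, the 98.7th percentile, and its neighbour Ifitm1 at 163, the 97.7th. Lgals3bp, a secreted glycoprotein, followed at 83.7, then Bst2 (tetherin), which holds budding virus at the cell surface, at 70.8, and Ifi27 at 51 CPM per kb. At the other end were 6 effectors. Ifit1, which binds foreign RNA caps, was at 1.16 CPM per kb, Ifit3 at 0.841, Ifi44 at 0.656, the genes of the dynamin-like antiviral GTPases Mx1 (defective in most inbred strains) and Mx2 at 0.423 and 0.363, and Ifit3b at 0.279. Regulators had the highest median of the 3 roles, 8.60 CPM per kb, led by the transcription factors Irf1 at 32.3 and Irf9 at 15.1, with effectors at 5.32 and sensors at 3.62. Among the sensors only Oas1a (13.2 CPM per kb) and Ddx58 (5.87) exceeded the median of all genes tested.

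**Figure D1:**
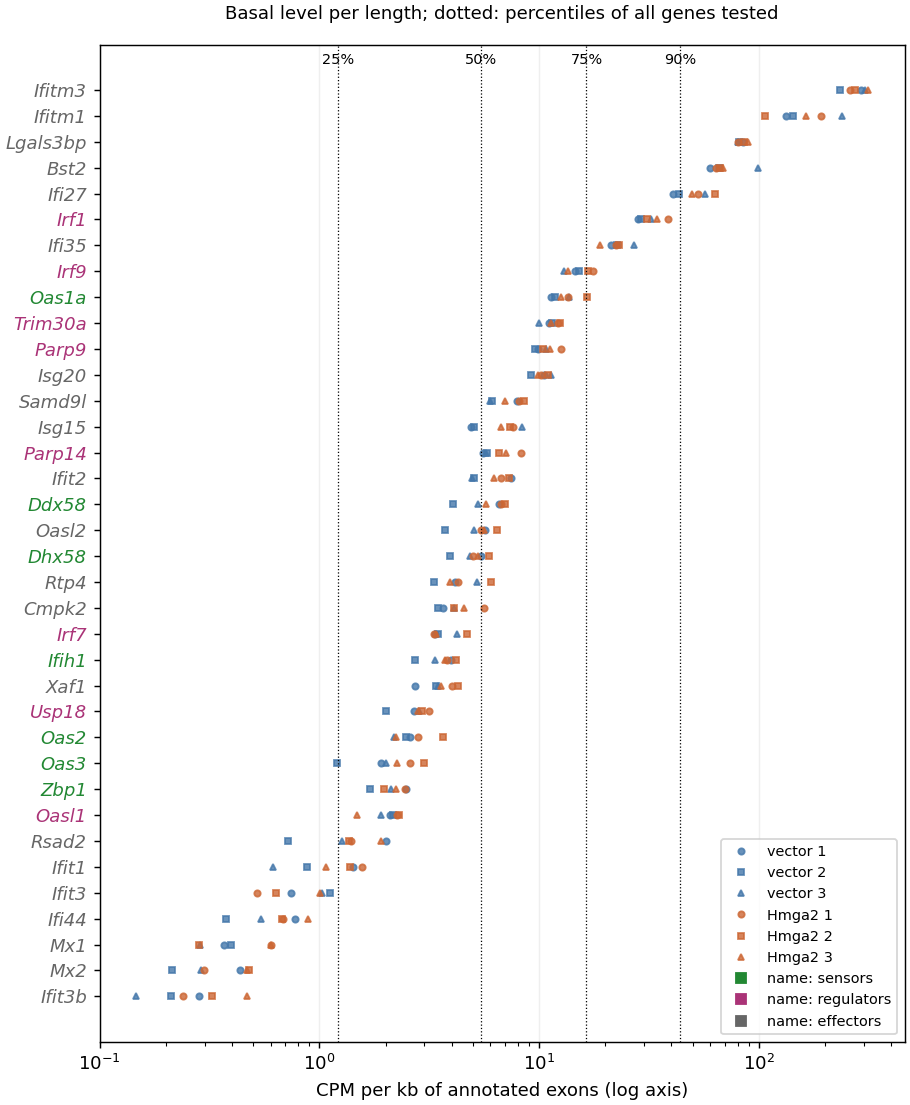
Level of each of the 36 genes in CPM per kb of annotated exons (log axis), 1 point per library, with gene names coloured by role and dotted lines at percentiles of all genes tested. Ifitm3 and Ifitm1 stand at the top, above the 90th percentile, and Ifit3b, Mx2, Mx1, Ifi44, Ifit3 and Ifit1 stand below the 25th.

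The ligands were nearly absent while the receptor and its transducers were present. Of 21 interferon genes listed, 17, among them Ifnb1, were at 0 in every library, 3 (Ifna13, Ifnab and Ifng) had at most 2 counts in any library, and Ifnz reached 15 counts in its highest. A count of 0 allows up to the floor given above. Ifnar1 was at 72, 73.9 and 69.4 CPM in vector replicates 1, 2 and 3 and at 78.8, 71.8 and 80.1 CPM in Hmga2 replicates 1, 2 and 3. Ifnar2 was at 87.8, 107 and 112 CPM in vector replicates 1, 2 and 3 and at 111, 102 and 116 CPM in Hmga2 replicates 1, 2 and 3. Both receptor chains were above the median of all genes per kb (12.5 and 31.8 CPM per kb), and their groups overlapped. Plasmacytoid dendritic cells are known as a strong source of interferon. Of 7 listed markers Klk1 was at 0 in every library and Siglech, a defining one, was at most 0.292 CPM. Cox6a2 was at 0.944, 1.69 and 1.13 CPM among vector libraries and 0.565, 0.422 and 2.42 CPM among those labelled Hmga2. Ccr9 reached 1.01 CPM (vector replicate 1) and Pacsin1 0.553 CPM (Hmga2 replicate 3). The summed list lay at 145 to 180 CPM in the vector libraries and 120 to 215 CPM in those labelled Hmga2, nearly all of it from Irf8 and Tcf4, which progenitors also express.

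Fold changes are given as log2 of libraries labelled Hmga2 over vector libraries. For all 7 sensors the value was above 0, as for 50.4% of all genes tested, and the median was 0.22. The test over all genes was passed by 0 sensors (edgeR, smallest adjusted p = 0.855) and by 0% of all genes. Oas3 (chr5:120753098-120777661, mm10), which makes the second messenger that activates the antiviral RNase L once it binds double-stranded RNA, differed most. It was at 13.5, 8.53 and 14.2 CPM in vector replicates 1, 2 and 3 and at 18.3, 21.1 and 15.9 CPM in Hmga2 replicates 1, 2 and 3. Every library labelled Hmga2 lay above every vector library, as for 5.3% of all genes tested, and vector replicate 2 was the lowest. The log2 fold change of 0.61 (SE 0.22, 95% interval 0.078 to 1.14, adjusted p = 0.855) corresponds to 1.52-fold, with means of 12.1 ± 3.1 and 18.4 ± 2.61 CPM (SD, n = 3 each); an exact two-sided permutation test gave p = 0.1, the smallest value that 3 against 3 allows. Without vector replicate 2 it was 0.41.

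In the other sensors the groups overlapped. Ddx58, which encodes the RIG-I helicase, was at 46.3, 28.5 and 37 CPM in vector replicates 1, 2 and 3 and at 47.1, 49.1 and 40.4 CPM in Hmga2 replicates 1, 2 and 3. Vector replicate 1 lay within the range of the labelled Hmga2 libraries and vector replicate 2 far below it, and the log2 fold change was 0.29 (SE 0.18, 95% interval -0.13 to 0.71, adjusted p = 0.855). Ifih1, encoding a helicase for long double-stranded RNA, was at 32.5, 22.2 and 27.3 CPM in vector replicates 1, 2 and 3 and at 31, 34 and 30.4 CPM in Hmga2 replicates 1, 2 and 3. Its log2 fold change was 0.22 with SE 0.15, with vector replicates 2 and 3 below all libraries labelled Hmga2 and vector replicate 1 among them. Dhx58, which encodes a related helicase that modulates the other two, was at 17.8, 12.9 and 15.9 CPM among vector libraries and 16.3, 19.4 and 17.3 CPM among those labelled Hmga2. Its log2 fold change was 0.18 with SE 0.16. Oas1a was at 21.3, 22.2 and 25.7 CPM among vector libraries and 25.5, 31.2 and 23.6 CPM among those labelled Hmga2, with a log2 fold change of 0.21 with SE 0.14. It shares 57.6% of its 50-base transcript words with Oas1g, so its counts are uncertain. Oas2 was at 11.5, 11.1 and 9.71 CPM among vector libraries and 12.5, 16.2 and 9.96 CPM among those labelled Hmga2 and Zbp1, a sensor of left-handed nucleic acid that can start cell death, at 8.75, 5.99 and 7.49 CPM among vector libraries and 8.64, 6.92 and 7.83 CPM among those labelled Hmga2. Their log2 fold changes were 0.26 with SE 0.21 and 0.073 with SE 0.20. Oas1a, Oas2 and Oas3 lie within 177 kb of each other on chromosome 5, and all 3 were highest in Hmga2 replicate 2. So were Ifih1, Ddx58 and Dhx58, which lie on other chromosomes.

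**Figure D2:**
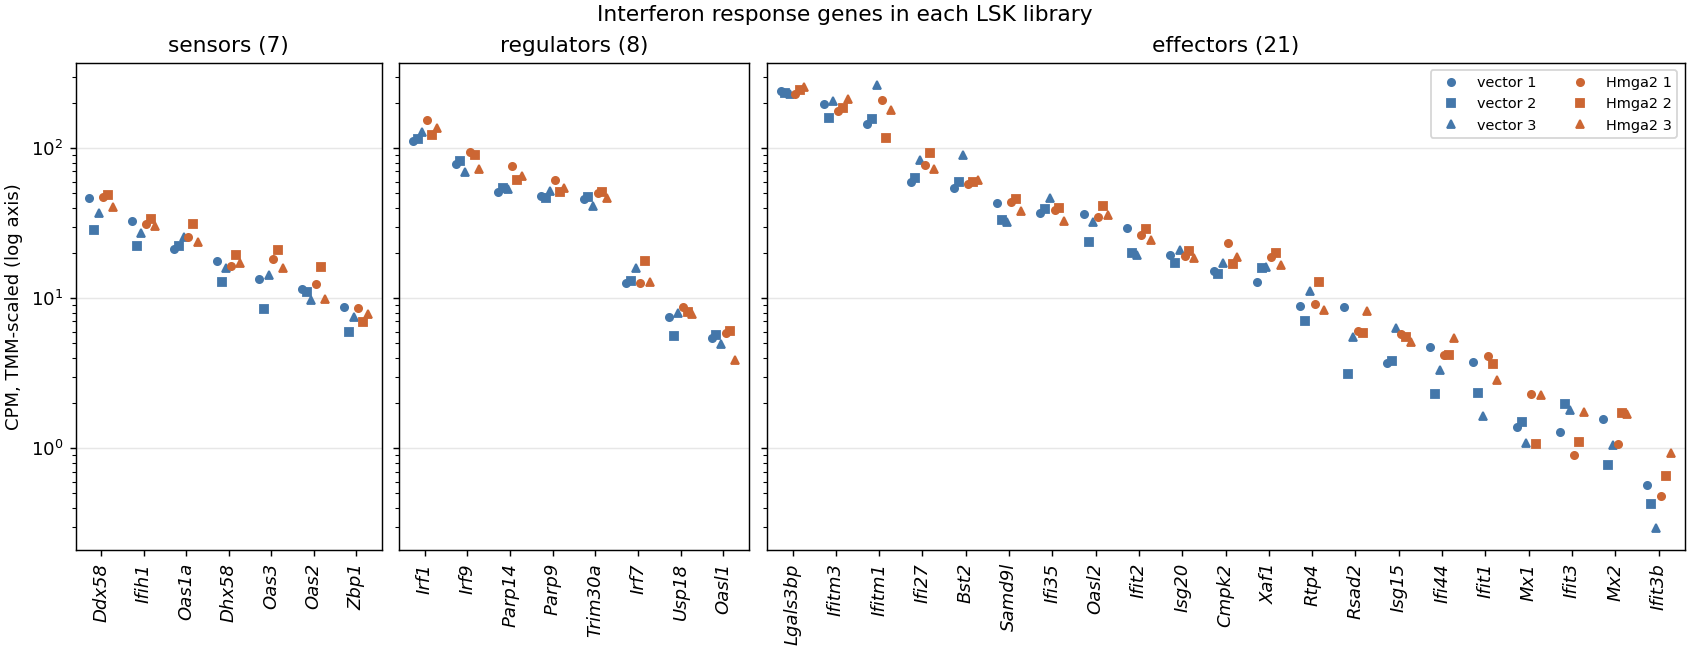
CPM of every member in each library (log axis), by role and ordered by mean level, with blue for vector and orange for labelled Hmga2 libraries. The points of most genes intermix, and Oas3, Parp14 and Xaf1 are the 3 whose groups do not overlap. All are higher in the labelled Hmga2 libraries, beside 5.3% of all genes tested.

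Of the 8 regulators 7 had a log2 fold change above 0, the median was 0.17, and 0 passed the test (edgeR, smallest adjusted p = 0.855). Parp14 (chr16:35832874-35871544), an ADP-ribosyltransferase, was at 51.4, 54.1 and 53.1 CPM in vector replicates 1, 2 and 3 and at 76.6, 61.3 and 65.6 CPM in Hmga2 replicates 1, 2 and 3. The vector libraries lay close together and below all 3 others, as for 5.3% of all genes tested. The vector and labelled Hmga2 means were 52.9 ± 1.36 and 67.8 ± 7.87 CPM (SD, n = 3 each). The log2 fold change was 0.36 (SE 0.10, 95% interval 0.12 to 0.60, adjusted p = 0.855), or 1.28-fold, and DESeq2 gave adjusted p = 0.246. Parp9, which acts with the ubiquitin ligase gene Dtx3l and lies within 140 kb of Parp14 on chromosome 16, was at 47.9, 46.7 and 52.3 CPM in vector replicates 1, 2 and 3 and at 61.1, 51 and 54.4 CPM in Hmga2 replicates 1, 2 and 3. Its groups overlapped through vector replicate 3 and Hmga2 replicate 2, and the log2 fold change was 0.18 with SE 0.099.

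None of the 3 transcription factors on the list separated the groups. Irf1, which can act on these promoters without the receptor complex, was at 112, 115 and 129 CPM in vector replicates 1, 2 and 3 and at 154, 123 and 137 CPM in Hmga2 replicates 1, 2 and 3, a log2 fold change of 0.22 (SE 0.10, 95% interval -0.023 to 0.46, adjusted p = 0.855). Hmga2 replicate 2 was below vector replicate 3, and Hmga2 replicates 1 and 3 were above all others. Without Hmga2 replicate 1 the log2 fold change of Irf1 was 0.14. Irf9, the DNA-binding part of the receptor-driven complex, was at 78.7, 82.2 and 69.9 CPM in vector replicates 1, 2 and 3 and at 94.8, 89.5 and 73 CPM in Hmga2 replicates 1, 2 and 3 (log2 fold change 0.16 with SE 0.12). Irf7, known as the amplifier of interferon production, was at 12.7, 13 and 15.9 CPM among vector libraries and 12.6, 17.8 and 12.8 CPM among those labelled Hmga2, with a log2 fold change of 0.051 with SE 0.19. Its highest values were Hmga2 replicate 2 and vector replicate 3. The groups of all 3 factors overlapped.

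The remaining regulators restrain the response. Trim30a, an inhibitor of innate signalling, was at 45.5, 47.2 and 41.2 CPM in vector replicates 1, 2 and 3 and at 49.9, 51 and 46.3 CPM in Hmga2 replicates 1, 2 and 3 (log2 fold change 0.14 with SE 0.089). Usp18, which removes Isg15 from proteins and blocks the receptor, was at 7.55, 5.61 and 7.95 CPM among vector libraries and 8.78, 8.16 and 7.8 CPM among those labelled Hmga2, with a log2 fold change of 0.23 with SE 0.19. Oasl1, which limits translation of Irf7, was at 5.45, 5.65 and 4.98 CPM among vector libraries and 5.9, 6.01 and 3.87 CPM among those labelled Hmga2, the only regulator with a negative log2 fold change, -0.026 with SE 0.22. For all 3 genes the groups overlapped.

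Of the 21 effectors, 17 had a positive log2 fold change and 4 a negative one (Ifit3, Bst2, Ifitm1 and Ifi35), with a median of 0.24, and 0 passed the test (edgeR, smallest adjusted p = 0.855). The most abundant ones differed little. Lgals3bp was at 241, 232 and 228 CPM in vector replicates 1, 2 and 3 and at 229.8, 244 and 255 CPM in Hmga2 replicates 1, 2 and 3. Its log2 fold change was 0.054 (SE 0.073, 95% interval -0.12 to 0.23, adjusted p = 0.931), the narrowest interval in the list, and its highest library exceeded its lowest by 1.11-fold. Ifitm3 was at 199, 159 and 206 CPM in vector replicates 1, 2 and 3 and at 177, 186 and 213 CPM in Hmga2 replicates 1, 2 and 3, a log2 fold change of 0.033 (SE 0.12, 95% interval -0.26 to 0.32, adjusted p = 0.98). Ifitm1, within 44 kb of it on chromosome 7, varied more, at 145, 156 and 263 CPM in vector replicates 1, 2 and 3 and at 211, 117 and 179 CPM in Hmga2 replicates 1, 2 and 3. Both its highest library, vector replicate 3, and its lowest, Hmga2 replicate 2, were among those rich in immunoglobulin counts. Bst2 was at 54.3, 59.7 and 89.7 CPM in vector replicates 1, 2 and 3 and at 57.9, 59.9 and 61.9 CPM in Hmga2 replicates 1, 2 and 3, where vector replicate 3 alone stood apart and the other 5 lay between 54.3 and 61.9 CPM. Ifi35, which encodes a leucine zipper protein, was at 36.9, 39.2 and 46.6 CPM among vector libraries and 38.7, 40.0 and 32.5 CPM among those labelled Hmga2 (log2 fold change -0.14 with SE 0.13), and Ifi27 at 59.5, 63.3 and 83.2 CPM among vector libraries and 77.7, 92.5 and 73 CPM among those labelled Hmga2 (log2 fold change 0.24 with SE 0.15).

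Xaf1 (chr11:72301629-72313733) encodes a pro-apoptotic antagonist of caspase inhibitors. It was the only 1 of the 21 effectors whose groups did not overlap, beside 5.3% of all genes tested that were likewise higher. It was at 12.8, 15.9 and 16.3 CPM in vector replicates 1, 2 and 3 and at 18.8, 20.0 and 16.7 CPM in Hmga2 replicates 1, 2 and 3. The gap between the highest vector and the lowest labelled Hmga2 library was small, and the log2 fold change was 0.30 (SE 0.15, 95% interval -0.050 to 0.65, adjusted p = 0.855), with means of 15 ± 1.9 and 18.5 ± 1.67 CPM (SD, n = 3 each). Cmpk2, a mitochondrial nucleotide kinase, was at 15.2, 14.4 and 17.1 CPM in vector replicates 1, 2 and 3 and at 23.4, 17 and 18.9 CPM in Hmga2 replicates 1, 2 and 3. Hmga2 replicate 1 was the highest, and Hmga2 replicate 2 lay just below vector replicate 3. Its log2 fold change was 0.35 (SE 0.16, 95% interval -0.029 to 0.72, adjusted p = 0.855). Its neighbour on chromosome 12, Rsad2, which encodes the antiviral enzyme viperin, was at 8.69, 3.11 and 5.48 CPM among vector libraries and 6.02, 5.88 and 8.27 CPM among those labelled Hmga2. Here vector replicate 1 was the highest and vector replicate 2 the lowest library, so the spread within the vector group exceeded the difference between groups, a log2 fold change of 0.22 with SE 0.37. Samd9l, a growth-restraining translation inhibitor of haematopoietic cells, was at 43, 33.1 and 32.5 CPM among vector libraries and 43.8, 46.2 and 38 CPM among those labelled Hmga2 (log2 fold change 0.24 with SE 0.14). Oasl2, the enzymatically active oligoadenylate synthetase-like gene, was at 36.2, 23.9 and 32.1 CPM among vector libraries and 34.6, 40.9 and 35.7 CPM among those labelled Hmga2 (log2 fold change 0.27 with SE 0.16). In both, vector replicate 1 lay among the libraries labelled Hmga2.

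The Ifit genes, which encode RNA-binding repeat proteins and lie within 99.3 kb on chromosome 19, gave log2 fold changes of both signs. Ifit2 was the only one at a middle level, at 29.4, 19.9 and 19.4 CPM in vector replicates 1, 2 and 3 and at 26.4, 28.7 and 24.5 CPM in Hmga2 replicates 1, 2 and 3. Vector replicate 1 was its highest library and vector replicates 2 and 3 its lowest, with a log2 fold change of 0.21 with SE 0.18. Ifit1 was at 3.78, 2.34 and 1.63 CPM among vector libraries and 4.15, 3.67 and 2.85 CPM among those labelled Hmga2 (log2 fold change 0.46 with SE 0.34). Ifit3 was at 1.29, 1.96 and 1.8 CPM among vector libraries and 0.904, 1.1 and 1.75 CPM among those labelled Hmga2, with a negative log2 fold change of -0.42 with SE 0.33, and Ifit3b at 0.567, 0.423 and 0.293 CPM among vector libraries and 0.48, 0.65 and 0.932 CPM among those labelled Hmga2, with a positive one of 0.67 with SE 0.42. Ifit3 shares 51.2% of its 50-base transcript words with Ifit3b, and how the authors divided reads between the pair is not known here, so both values are uncertain. Both genes also rest on few reads, 32 to 60 counts per library for Ifit3 and 7 to 32 for Ifit3b. The 95% intervals of both spanned 0.

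Isg15, the ubiquitin-like modifier with the densest run of elements among the windows shown, was at 3.68, 3.8 and 6.32 CPM among vector libraries and 5.73, 5.56 and 5.09 CPM among those labelled Hmga2 (log2 fold change 0.25 with SE 0.25). Vector replicates 1 and 2 were its lowest libraries and vector replicate 3 its highest. Isg20, an RNA exonuclease gene, was at 19.5, 17.1 and 21.1 CPM among vector libraries and 19, 20.5 and 18.5 CPM among those labelled Hmga2, with a log2 fold change of 0.0059, the one nearest to 0 in the list. Rtp4, a transporter-related inhibitor, was at 8.85, 7.07 and 11.1 CPM among vector libraries and 9.12, 12.8 and 8.38 CPM among those labelled Hmga2. Mx1 was at 1.39, 1.5 and 1.09 CPM among vector libraries and 2.29, 1.07 and 2.27 CPM among those labelled Hmga2, Mx2 at 1.57, 0.768 and 1.05 CPM among vector libraries and 1.07, 1.72 and 1.69 CPM among those labelled Hmga2 and Ifi44 at 4.72, 2.3 and 3.31 CPM among vector libraries and 4.18, 4.16 and 5.44 CPM among those labelled Hmga2. These 3 genes, like Ifit3 and Ifit3b, rest on few reads, here down to 20 counts in a library. Their 95% intervals reached log2 fold changes of 1.33, 1.24 and 1.11.

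**Figure D3:**
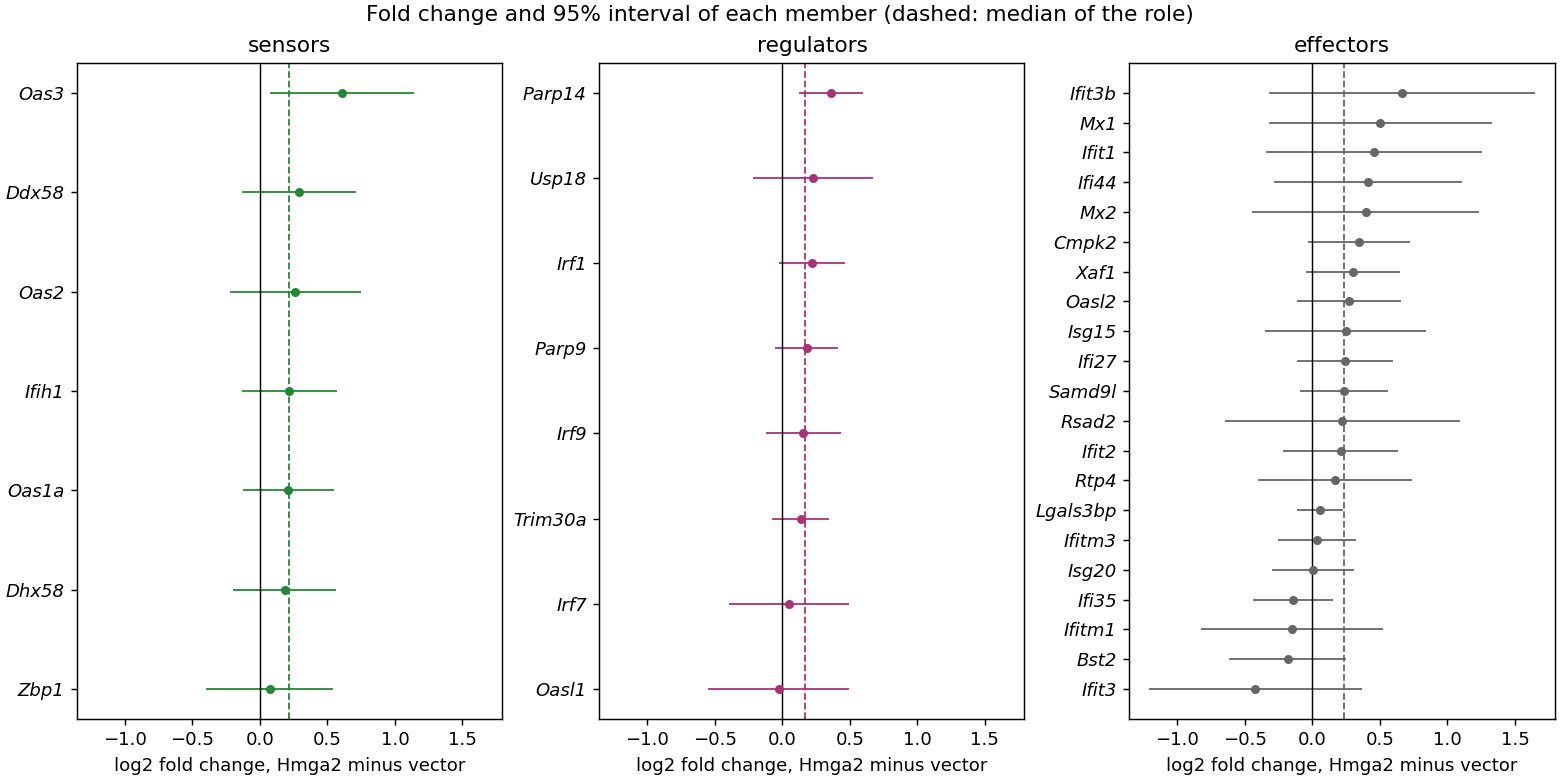
Log2 fold change of each member, labelled Hmga2 minus vector, with its 95% interval from edgeR, by role; dashed lines mark the median of each role. Most points lie right of 0, and the intervals of Oas3 and Parp14 alone do not reach it.

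Over the 36 members, 31 had a log2 fold change above 0, or 86.1%, beside 50.4% of all 16739 genes tested, and their median was 0.22 beside 0.0016 for all genes tested. The list was chosen with earlier results of these data known, its genes respond together to common signals, and no test was made over it. None of the 36 passed the threshold in edgeR, where 0% of all genes did, or in DESeq2, which called 71 genes or 0.425%. At an unadjusted p under 0.05 edgeR had 2 members higher (Oas3 and Parp14), beside 2.23% of all genes, and 0 lower, beside 3.36%. DESeq2 likewise had 2. The groups did not overlap for 3 members (Oas3, Parp14 and Xaf1), all higher in the libraries labelled Hmga2, where 5.3% of all genes were, and for 0 members lower, where 5.86% of all genes were. Counts this small lie near the background and show nothing particular to the members. Of the 95% intervals 34 spanned 0, and 29 had an upper bound below 1, so that a 2-fold rise lay outside them. The other 7 were Oas3 and 6 effectors, Ifit3b, Mx1, Ifit1, Mx2, Ifi44 and Rsad2. Without vector replicate 2 the median of the members was 0.13, that of the sensors 0.13 and that of the effectors 0.12, and 28 members were above 0.

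**Figure D4:**
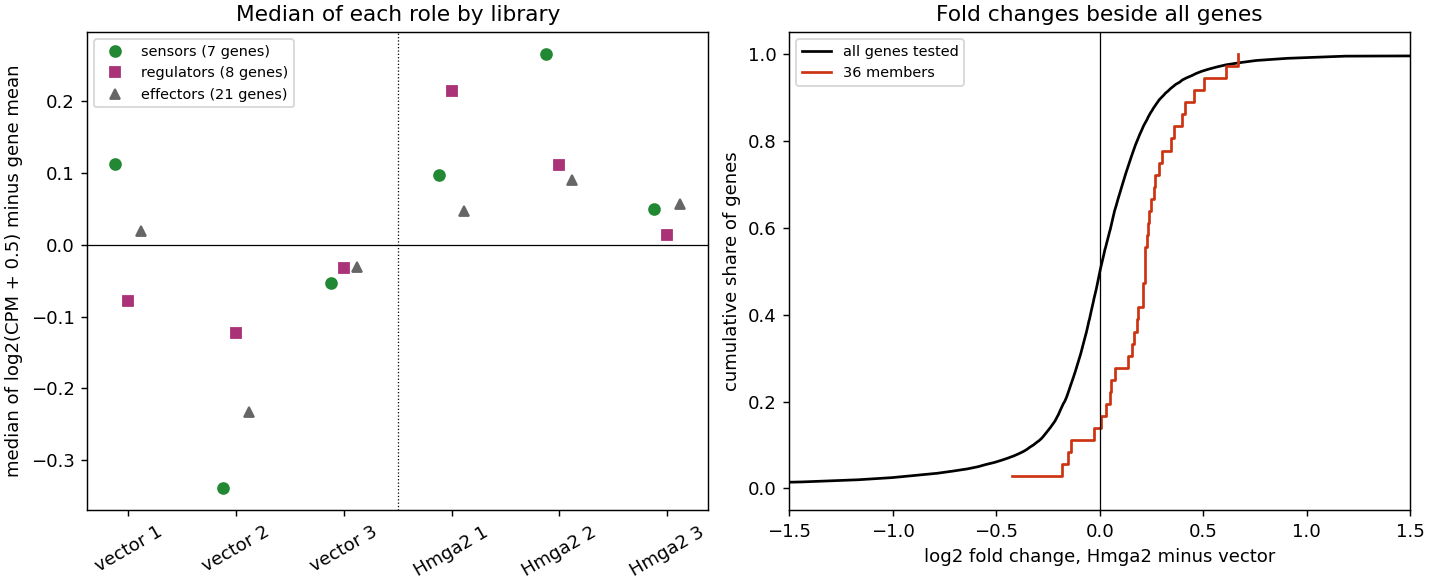
Left, the median over each role of log2(CPM + 0.5) minus the gene's mean over the 6 libraries, for each library. Right, cumulative share of genes by log2 fold change for the 36 members and for all genes tested; the members' curve lies to the right over most of its range, with a median of 0.22 beside 0.0016.

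Libraries of a group differed from each other in the members. Taken as log2(CPM + 0.5) relative to the average of the gene, the median over the members was -0.030, -0.20 and -0.052 in vector replicates 1, 2 and 3 and 0.096, 0.15 and 0.045 in Hmga2 replicates 1, 2 and 3. Vector replicate 2 was the lowest library for 15 of the 36 genes, beside 15.3% of all genes tested, and Hmga2 replicate 2 the highest for 15, beside 15.4%. For the sensors the medians were 0.11, -0.34 and -0.053 and then 0.097, 0.27 and 0.050, so vector replicate 1 lay above Hmga2 replicates 1 and 3. Vector replicate 2 was the lowest library for 5 of 7 sensors and Hmga2 replicate 2 the highest for 6 of 7. The regulators were ordered otherwise, with medians of -0.078, -0.12 and -0.033 and then 0.21, 0.11 and 0.013, and Hmga2 replicate 1 was the highest library for 5 of 8. For the effectors the medians were 0.019, -0.23 and -0.032 and then 0.047, 0.090 and 0.056, with a smaller gap between the groups than among the vector libraries.

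Markers of other cells also differed between these libraries. Vector replicate 2, lowest for most sensors, had the lowest Ly6a (19.3 CPM) and the highest neutrophil sum. The neutrophil list summed to 3893 to 8280 CPM in the vector libraries and 2613 to 4244 CPM in the others, and 0 of its 9 markers were at 0 in every library. Most of the sum came from Mpo, Prtn3 and Elane, granule genes that progenitors also express. Mpo was at 2987, 6339.9 and 3099 CPM among vector libraries and 3503, 1986 and 2909 CPM among those labelled Hmga2, while S100a8, a marker of mature cells, was at 5.32, 5.8 and 2.93 CPM among vector libraries and 0.141, 2.21 and 1.02 CPM among those labelled Hmga2. The groups of S100a8, Elane, Ltf, Ngp, Camp and S100a9 did not overlap, all lower in the libraries labelled Hmga2, beside 5.86% of all genes. Those of Mpo, Prtn3 and Ly6g overlapped. DESeq2 called Ltf and Ngp (adjusted p = 0.0199 and 0.0135), and edgeR did not (adjusted p = 0.855 for both). Ltf, Ngp and Camp fell to 2, 7 and 3 counts in a library. The part of these cells in the result was not tested. Among libraries rich in immunoglobulin counts (Hmga2 replicate 2 against vector replicates 1 and 3) the members' median difference in log2(CPM + 0.5) was 0.19. Among the rest (Hmga2 replicates 1 and 3 against vector replicate 2) it was 0.33. The single vector library there was the one with the lowest members' median (-0.20), and each comparison has only 1 library on a side. With immunoglobulin-rich libraries as a covariate the fitted median was 0.29, and with Y-linked counts as a covariate it was also 0.29. Hmga2 replicates 1 and 3, the libraries with most Y-linked counts, were also highest for Irf1 and Parp14. With the Y-linked covariate the log2 fold change of Parp14 was 0.25, against 0.36 without it, and that of Irf1 was 0.12, against 0.22. By role, the medians with it were 0.37 for sensors (0.22 without), 0.32 for effectors (0.24) and 0.15 for regulators (0.17). High Y-linked counts occurred only in libraries labelled Hmga2, so this covariate and the label cannot be fully told apart. The part of either was not tested.

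**Figure D5:**
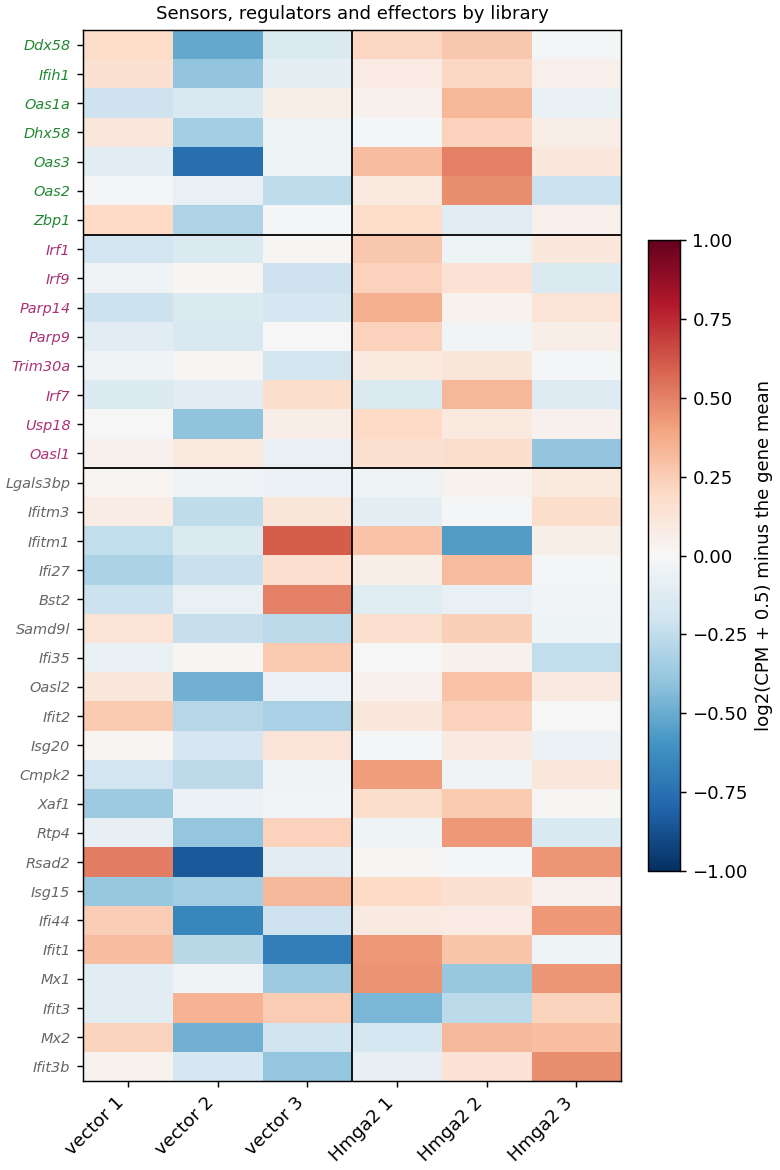
Each member in each library as log2(CPM + 0.5) minus the gene's mean, with sensors, regulators and effectors separated by horizontal lines and the groups by a vertical line. Vector replicate 2 is lowest for 15 of the 36 genes, and Hmga2 replicate 2 highest for 15.

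Other genes of the pathway gave the same count of calls, 0 in every list (edgeR, smallest adjusted p = 0.855). Among receptor and transducer genes, Stat2 was at 44.7, 53 and 46.9 CPM among vector libraries and 64.5, 50.6 and 53.2 CPM among those labelled Hmga2 (log2 fold change 0.22 with SE 0.12), and Jak1 at 241, 212 and 209 CPM among vector libraries and 264, 233 and 231 CPM among those labelled Hmga2 (log2 fold change 0.14 with SE 0.092). For both the groups overlapped.

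Of 12 genes that lead from sensors to interferon, 9 were positive (50.4% of all genes were) and 3 negative, with a median of 0.043. The DNA-sensing adaptor gene Tmem173 (STING) was at 87, 106 and 113 CPM among vector libraries and 103, 87.6 and 118 CPM among those labelled Hmga2 and Irf3, the factor that starts interferon transcription, at 93.8, 104 and 106 CPM among vector libraries and 101, 107 and 101 CPM among those labelled Hmga2. Their log2 fold changes were 0.012 with SE 0.14 and 0.022 with SE 0.077, well within the spread of either group. Myd88, the adaptor of most Toll-like receptors, was the only gene of the list whose groups did not overlap (lower in the libraries labelled Hmga2, beside 5.86% of all genes, so that 1 of 12 lies near the background), at 65.3, 65.9 and 75.2 CPM among vector libraries and 60.2, 64.7 and 64.6 CPM among those labelled Hmga2 (log2 fold change -0.12 with SE 0.087). Among 7 feedback inhibitors 3 were positive and 4 negative, with a median of -0.031. Irf2, an antagonist of Irf1, was at 73.2, 58.9 and 64.3 CPM in vector replicates 1, 2 and 3 and at 77.7, 76.3 and 74.1 CPM in Hmga2 replicates 1, 2 and 3, with all labelled Hmga2 libraries above all vector libraries (5.3% of all genes) and a log2 fold change of 0.21 (SE 0.096, 95% interval -0.012 to 0.44, adjusted p = 0.855). Socs3, a cytokine receptor inhibitor, was at 21.6, 17.2 and 39.4 CPM among vector libraries and 20.6, 16 and 27.5 CPM among those labelled Hmga2, with overlapping groups.

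Among 30 further interferon-stimulated genes that are not on the list, 27 were positive, beside 50.4% of all genes tested, and 3 negative, with a median of 0.16. The groups did not overlap for 3 (Ifi203, Dtx3l and Sp100), all higher in the libraries labelled Hmga2, beside 5.3% of all genes. Ifi203, of the DNA-binding HIN-domain family, was at 112, 90.7 and 99.7 CPM in vector replicates 1, 2 and 3 and at 163, 120.4 and 136 CPM in Hmga2 replicates 1, 2 and 3, a log2 fold change of 0.48 (SE 0.13, 95% interval 0.17 to 0.78, adjusted p = 0.855). Dtx3l, the partner of Parp9, was at 68.6, 63.4 and 60.8 CPM in vector replicates 1, 2 and 3 and at 103, 74.7 and 81.4 CPM in Hmga2 replicates 1, 2 and 3, with a log2 fold change of 0.42 (SE 0.13, 95% interval 0.12 to 0.73, adjusted p = 0.855). In both genes Hmga2 replicate 1 was the highest library and replicate 3 the next, the order also seen for Parp14. Ifi27l2a, a small mitochondrial protein gene, was at 1.01, 1.19 and 2.18 CPM among vector libraries and 2.37, 3.28 and 2.13 CPM among those labelled Hmga2 (log2 fold change 0.83 with SE 0.36), its groups overlapping through vector replicate 3. Ifitm2, the most abundant per kb of the further genes at 443 CPM per kb, was at 264, 275 and 327 CPM among vector libraries and 285, 299 and 289 CPM among those labelled Hmga2, a log2 fold change of 0.013.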

How the data were processed

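RNA sequencing of LSK cells gave 6 libraries, 3 per group, with groups and replicate numbers from the sample titles. The authors deposited expected counts (estimated reads per gene symbol, which need not be whole), a unit judged from the values. The submitters' processing notes name Partek 3.0, Bowtie2 and mm10; counter, annotation and strand use were not given in the sources used here, and estimated counts of near-identical genes depend on how shared reads were divided, and overlapping or antisense genes may share reads. Counts were rounded and fitted across all 16739 genes passing filterByExpr with edgeR 4.0.16 (R 4.3.3): TMM, quasi-likelihood F test on group, Benjamini-Hochberg adjustment over all genes, threshold 0.05. SE and 95% intervals come from the F statistic. DESeq2 1.42.0 was the other tool. Levels per kb use exon unions of GENCODE M21 (97.1% of tested symbols). Steps were run on simulated counts with a fixed spread between libraries and set changes larger than those of any member. That run does not show how well changes as small as the members' would be found. Members, roles and lists were chosen with earlier results of these data known. Values per library are given, in each role, for the 4 members highest per kb, the 4 with the smallest unadjusted p and any whose groups do not overlap; other members and pathway genes are described beside them. Of each pathway list up to 4 genes with the smallest unadjusted p and up to 2 with the highest mean CPM could be named, and Stat2, Ifnar1, Ifnar2, Hmga2 and Ly6a in any case. Sp100, Mpo, Prtn3, Elane, S100a8, S100a9, Ltf, Ngp, Camp, Ly6g, Irf8, Tcf4, Cox6a2, Ccr9 and Pacsin1 fall outside this rule and were named after their values were seen. Some genes that the rule takes are not reported here.
No pair of replicates agreed within sampling noise (chi-square over its degrees of freedom 24.8 to 56.9). Correlations of same-numbered libraries in their deviations from the group means were -0.21, -0.49 and -0.23, so the numbers did not pair the libraries. P-values measure the spread between these libraries.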

Additional observations from a re-analysis of the deposited data

How the results depend on the processing

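The alternatives were each library left out in turn, DESeq2 size factors, library totals alone, no count filter, DESeq2, a robust fit, a replicate block, terms for immunoglobulin-rich libraries and Y-linked genes, and leaving out immunoglobulin genes. No member and no gene of the pathway lists was called under any of them, and the smallest adjusted p of a member was 0.246 (Parp14, DESeq2). Over all genes, where edgeR called 0, DESeq2 called 71, edgeR without the filter 1 (Mt1) and with the Y-linked term 1 (Ighv1-78), the last 2 names seen only with these values. With the replicate block 0 genes were called and the members' median was 0.23, and the block changed no call; the labels share only numbers. The members' median was 0.13 to 0.27 with each library left out and 0.29 with the immunoglobulin term. It was 0.33 within the libraries not rich in immunoglobulin, where vector replicate 2 was the only vector library. It was 0.22 without Ifit3, Ifit3b, Oas1a, Mx2 and Trim30a, which share transcript words with copies. Mx1, Ifitm1 and Ifitm3 were kept, though they share 3.86%, 1.42% and 3.18% of such words with Mx2, Ifitm3 and Ifitm2. With each library left out, the medians of sensors, regulators and effectors were 0.13 to 0.31, 0.13 to 0.21 and 0.12 to 0.28, each positive. Between 28 and 33 members were above 0. Members with groups that did not overlap numbered 4 to 15 with a library left out, where 17.6% to 30.5% of all genes did so, and 8 by library totals alone (11.7% of all genes); these counts were added after seeing the data, and the cause was not tested.

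Of 540 fits of single members under an alternative, 522 kept their direction and 18, in 10 members, did not. With each library left out the log2 fold change ran from -0.058 to 0.21 for Zbp1, -0.13 to 0.17 for Irf7, -0.14 to 0.15 for Oasl1, -0.074 to 0.083 for Isg20, -0.34 to 0.17 for Ifitm1, -0.075 to 0.11 for Ifitm3, -0.077 to 0.65 for Rsad2, -0.046 to 0.35 for Rtp4 and -0.32 to 0.077 for Bst2. With the Y-linked term it was 0.054 for Oasl1 and -0.10 for Mx1, and without immunoglobulin genes -0.0015 for Isg20. For 8 members at least 1 library held under 100 counts.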
